A study of Mus musculus with 5 samples.

Results

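Resident macrophages of the liver take up worn-out red cells and haemoglobin, break down the haem, and store or release the iron. The genes of this route were followed in Kupffer cells that lack Id3, an inhibitor of basic helix-loop-helix transcription factors. The 10 are Slc48a1, Hmox1, Blvra, Blvrb, Fth1, Ftl1, Slc40a1, Tfrc, Slc11a1 and Slc11a2. They were chosen with earlier results of these data known and taken by gene symbol from the 46983 genes of the count table. All 10 were found there and passed the filter on low counts. The knockout group held 2 samples of ID3-/- Kupffer cells (replicates 2 and 3). The heterozygous group held 3 samples of ID3+/- Kupffer cells (replicates 1, 2 and 3), so the controls also carried an inactive Id3 allele. Liver tissue was the source in each case, and polyadenylated RNA was amplified before sequencing. The sources used here do not give the strain, age, the part of Id3 that was removed, how the cells were isolated or how many animals stand behind a sample, and the column names hold a "3w" that is not explained. Where samples came from 1 animal or culture, the p-values cover technical spread only.

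In macrophages, haem from digested red cells leaves the phagolysosome through the transporter encoded by Slc48a1 (HRG1). Haem oxygenase 1 (Hmox1) opens the ring and frees iron, carbon monoxide and biliverdin, and the biliverdin reductases (Blvra, Blvrb) turn biliverdin into bilirubin. The freed iron is kept in ferritin, a shell of heavy (Fth1) and light (Ftl1) chains, or leaves the cell through ferroportin (Slc40a1), which the liver hormone hepcidin removes from the surface. Transferrin-bound iron enters through the transferrin receptor (Tfrc), and the proton-coupled metal transporters NRAMP1 (Slc11a1) and DMT1 (Slc11a2) move iron out of phagosomes and endosomes. Several of these messengers carry an iron-responsive element, a hairpin that iron regulatory proteins grip when iron is scarce, which blocks translation when it lies in the 5' untranslated region and stabilises the transcript when it lies in the 3' untranslated region.

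The hairpin is shown because, in the 4 of the 10 genes where it was found, it precedes the coding sequence in 3 and follows it in 1. It was sought on the sense strand of GENCODE M21 transcripts (GRCm38) as a C, 5 bases of any kind, the loop CAGTGN and 5 bases that pair with those before the loop, G-T pairs allowed. The capitals mark the 6 bases of the loop, with 6 bases shown on each side of the match:
Fth1, 5' untranslated region, chr19:9982732-9982760, + strand: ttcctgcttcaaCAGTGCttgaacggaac
Ftl1, 5' untranslated region, chr7:45459779-45459807, - strand: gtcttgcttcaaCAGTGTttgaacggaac
Slc40a1, 5' untranslated region, chr1:45925465-45925493, - strand: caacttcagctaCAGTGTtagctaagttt
Tfrc, 3' untranslated region, chr16:32631219-32631247, + strand: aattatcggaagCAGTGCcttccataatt
Tfrc, 3' untranslated region, chr16:32631598-32631626, + strand: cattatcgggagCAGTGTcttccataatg
Tfrc, 3' untranslated region, chr16:32631663-32631691, + strand: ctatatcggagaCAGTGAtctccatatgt
Tfrc, 3' untranslated region, chr16:32631710-32631738, + strand: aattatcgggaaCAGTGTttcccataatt

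Among all coding genes with an annotated 5' untranslated region, 28 of 21106 (0.133%) held such a match, against 128 of 21831 (0.586%) for the 3' side. Of the 10 genes, 3 had it on the 5' side and 1, Tfrc, on the 3' side, where it occurred at 4 places. A match is a run of letters and not a measured binding site. The untranslated regions of the other 6 genes held no match to these letters, which says nothing on hairpins of another shape.

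Each library held 75.8M or 77.3M counts assigned to genes in the knockout group and 74.8M to 80.9M in the heterozygous group. Id3 was at 1.01 and 1.42 CPM in the knockout libraries, against 229, 221 and 256 CPM in the heterozygous ones, so each library matched its label. Summed counts of 12 Kupffer cell and macrophage markers, led by Clec4f and Cd5l, came to 69595 and 73084 CPM in the knockout and 62951 to 66506 CPM in the heterozygous libraries. These markers did not all move 1 way. The log2 fold change (knockout over heterozygous) was -0.20 for Clec4f and 0.33 for Cd5l, and neither passed the test described below. Of the 12, 3 passed it as higher and 0 as lower, with a median log2 fold change of 0.21. The same test passed 6.41% of all genes as higher and 10.0% as lower. At an unadjusted p under 0.05, 6 of the 12 were higher and 3 lower. Summed counts of 16 hepatocyte markers, led by Alb and Ahsg, were lower, at 4620 and 11984 CPM in the knockout and 23374 to 29540 CPM in the heterozygous libraries. The 13 neutrophil markers, led by Mmp9 and Csf3r, summed to 299 and 590 CPM against 159 to 188 CPM. Of the 10 of them tested, 7 passed as higher and 0 as lower, with a median log2 fold change of 4.35. The 13 red cell and erythroblast markers, led by Hbb-bs and Hba-a1, summed to 2802 and 3398 CPM against 3212 to 3937 CPM. Reads with several alignments, which were not counted, were 32.3% and 34.1% of those aligned in the knockout libraries and 38.3% to 41.0% in the heterozygous ones. In bulk samples such as these, fewer cells of a type and less RNA per cell cannot be told apart.

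Of the 10 genes, 5 rose in the knockout cells (Slc48a1, Hmox1, Fth1, Ftl1 and Slc11a2), 1 fell (Tfrc) and 4 did not pass the test (Slc40a1, Slc11a1, Blvra and Blvrb). The test was edgeR's quasi-likelihood test with Benjamini-Hochberg adjustment over all 16436 genes tested, and a gene passed at an adjusted p under 0.05. Over all those genes 6.41% rose and 10.0% fell, 16.4% in either direction. The median log2 fold change of the 10 genes was 0.46, beside -0.02 over all genes tested. Because the 10 were chosen with earlier results of these data known, setting them beside all genes is not a test of the set. The libraries of the 2 groups did not overlap for any of the 10, with the knockout higher in 9 and lower in 1, whereas 51.5% of all genes tested showed no overlap, 24.6% with the knockout higher and 26.9% with it lower. Slc40a1, Slc11a1 and Blvrb joined the genes that rose, 8 in all, with DESeq2 (2037 of 14523 genes higher and 17.4% lower), limma-voom (7.23% higher and 10.3% lower of all genes) and edgeR with upper-quartile scaling (8.78% and 9.12%). Other fits gave fewer. The number that rose was 3 or 2 with offsets for length and GC content, and 0 with a hepatocyte covariate (0 at an unadjusted p under 0.05). It was also 0 in edgeR without heterozygous replicate 1 (6 unadjusted) or heterozygous replicate 2 (8 unadjusted). Over all genes, 119 of 15972 rose without heterozygous replicate 1 and 87 of 16022 without heterozygous replicate 2. At an unadjusted p under 0.05 these 2 fits had 4131 and 4071 genes in either direction, against 5499 of 16436 with all libraries. Without knockout replicate 2, the log2 fold change was 0.76 for Slc48a1 and 0.60 for Hmox1. Together the 10 genes took 2.05% and 2.13% of all gene counts in the knockout libraries and at most 1.61% in the heterozygous ones. Levels below are counts-per-million (CPM) scaled by TMM, a trimmed-mean scaling between libraries, and each fold change is knockout over heterozygous on the log2 scale with its standard error (SE).

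**Figure D1:**
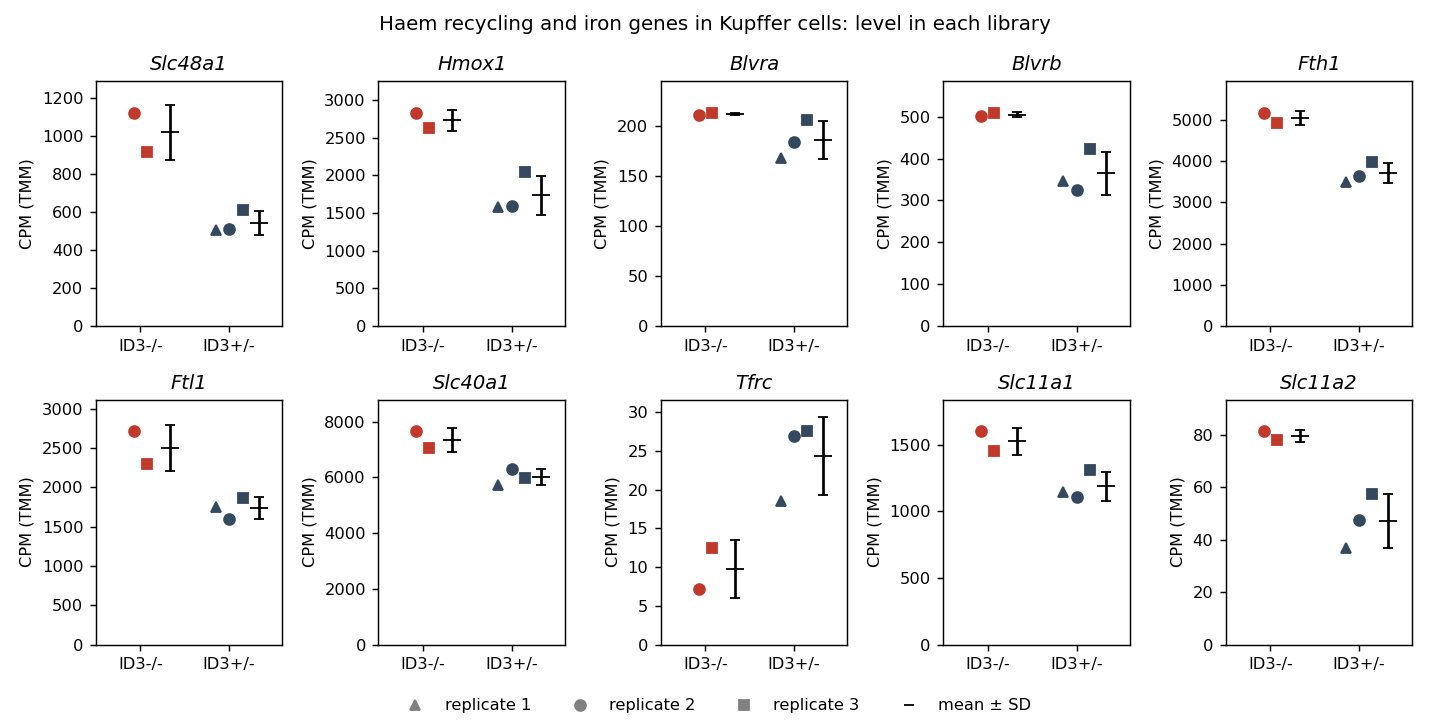
Level of each of the 10 genes in CPM (TMM-scaled, axis from 0) in every library, with the 2 ID3-/- libraries in red at the left of each panel and the 3 ID3+/- libraries in dark blue at the right. The black bar is the mean ± SD of the group. The groups do not overlap in any panel, and Tfrc is the panel in which the ID3-/- libraries lie lower.

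The transporter gene for haem release from the phagolysosome rose in the knockout cells. Slc48a1 (ENSMUSG00000081534.2, chromosome 15) stood at 1122 and 918 CPM in the knockout libraries and at 503, 511 and 614 CPM in the heterozygous ones. Each knockout library thus lay above every heterozygous library, with knockout replicate 2 the highest. The log2 fold change was 0.91 ± 0.13 (edgeR adjusted p = 0.0131), a 1.88-fold higher level. The call was lost without heterozygous replicate 1 (log2 fold change 0.86) or heterozygous replicate 2 (0.87), at nearly the same value.

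Hmox1 (ENSMUSG00000005413.7, chromosome 8), the enzyme that opens the haem ring, had 2826 and 2632 CPM in the knockout libraries and 1583, 1592 and 2037 CPM in the heterozygous ones. Heterozygous replicate 3 came nearest to the knockout libraries and the other two lay close together. The log2 fold change was 0.65 ± 0.13 (edgeR adjusted p = 0.0252), a 1.57-fold higher level. Without knockout replicate 2, heterozygous replicate 1 or heterozygous replicate 2 the gene no longer passed, with log2 fold changes of 0.60, 0.59 and 0.60. The constitutive enzyme Hmox2 was at 187 ± 7.16 CPM in knockout cells (SD, n = 2) and 170 ± 7.11 CPM in heterozygous cells (SD, n = 3) and did not pass (log2 fold change 0.14 ± 0.09, edgeR adjusted p = 0.32). Por, the reductase that hands electrons to haem oxygenase, did not pass either (0.13 ± 0.09, edgeR adjusted p = 0.339).

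The biliverdin reductases did not pass the test. Blvrb (ENSMUSG00000040466.15, chromosome 7), which is also known as a flavin reductase, had 500.4 and 509 CPM in the knockout libraries, against 346, 326 and 422 CPM in the heterozygous ones. Its log2 fold change of 0.47 ± 0.13 missed the threshold (edgeR adjusted p = 0.0532) and passed without heterozygous replicate 3 (0.59). Blvra (ENSMUSG00000001999.15, chromosome 2) had 212 and 213 CPM in the knockout libraries, against 169, 184 and 207 CPM in the heterozygous ones. Heterozygous replicate 3 lay just under the knockout values, and the log2 fold change was 0.19 ± 0.11 (edgeR adjusted p = 0.275). Counts of Blvrb over those of Blvra, a ratio within each library, came to 2.36 and 2.38 in the knockout and 1.77 to 2.06 in the heterozygous libraries. With 2 samples against 3, no exact permutation test of such a ratio can give a p below 0.1, so ratios are given without one.

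Transcripts of both ferritin chains rose in the fit with no offset for transcript length and GC content. Fth1 (ENSMUSG00000024661.6, chromosome 19), whose heavy chain oxidises iron as it enters the shell, had 5167 and 4916 CPM in the knockout libraries and 3504, 3637 and 3987 CPM in the heterozygous ones (log2 fold change 0.44 ± 0.08, edgeR adjusted p = 0.023). Ftl1 (ENSMUSG00000050708.14, chromosome 7), whose light chain helps iron to crystallise inside the shell, had 2709 and 2296 CPM in the knockout libraries and 1748, 1591 and 1869 CPM in the heterozygous ones (log2 fold change 0.53 ± 0.11, edgeR adjusted p = 0.028). For both chains the knockout libraries stood clear of the heterozygous ones, and knockout replicate 2 was the higher of the pair. Fth1 plus Ftl1 came to 7876 and 7212 CPM in the knockout and 5228 to 5856 CPM in the heterozygous libraries. The balance of heavy to light chain overlapped between the groups, at 1.91 and 2.14 Fth1 counts per Ftl1 count in the knockout and 2.00, 2.29 and 2.13 in the heterozygous libraries. With such offsets, described below, the log2 fold change of Ftl1 was 0.03, or -0.03 with the principal transcript, and did not pass, while Fth1 passed at 0.33 with the longest transcript and did not at 0.11 with the principal one. Both calls were lost without knockout replicate 2 (Fth1 0.40, Ftl1 0.40), heterozygous replicate 1 (0.40 and 0.53) or heterozygous replicate 2 (0.43 and 0.47). Ferritin genes have near-identical processed copies in the mouse genome, and a read that fits several places was left out, so both levels are counted in part. The rows of the table named for ferritin relatives (Ftmt, the Fthl17 genes and ferritin pseudogenes) summed to 68 and 85 counts in the knockout libraries and to 34 to 52 counts in the heterozygous ones.

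Ferroportin was the most abundant of the 10 in CPM and did not pass. Slc40a1 (ENSMUSG00000025993.10, chromosome 1) had 7644 and 7040 CPM in the knockout libraries and 5726, 6314 and 5965 CPM in the heterozygous ones. The groups did not overlap, but the log2 fold change of 0.29 ± 0.08 missed the threshold (edgeR adjusted p = 0.0564). It passed without knockout replicate 3 (0.36). Counts of Hmox1 per count of Slc40a1 came to 0.370 and 0.374 in the knockout and 0.252 to 0.341 in the heterozygous libraries. Those of Slc48a1 per count of Slc40a1 came to 0.147 and 0.130 in the knockout and 0.0809 to 0.103 in the heterozygous libraries. Both count ratios were higher in each knockout library, on counts with no offset. With offsets for length and GC content, described below, this order did not hold. The log2 fold change of Slc40a1 was then 0.73 ± 0.09, or 0.70 ± 0.08 with the principal transcript. It lay above that of Hmox1 (0.33 ± 0.09 and 0.35 ± 0.09). Its SE range overlapped that of Slc48a1 (0.63 ± 0.09 and 0.67 ± 0.09).

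The receptor for transferrin went the other way. Tfrc (ENSMUSG00000022797.15, chromosome 16) had 7.16 and 12.5 CPM in the knockout libraries, from 540 and 964 counts, and 18.5, 26.9 and 27.5 CPM in the heterozygous ones, from 1519 to 2123 counts. Knockout replicate 2 was the lowest of all 5 libraries and heterozygous replicate 1 the lowest of its group. The log2 fold change was -1.31 ± 0.30 (edgeR adjusted p = 0.0355), a level 2.48-fold lower in the knockout. The call was lost without knockout replicate 2 (-0.97), heterozygous replicate 1 (-1.47), heterozygous replicate 2 (-1.23) or heterozygous replicate 3 (-1.21). Hepatocyte marker counts were lower in the same libraries. With the mean hepatocyte marker level of each library as a covariate, the log2 fold change of Tfrc was -0.32 ± 0.49. That covariate also separates the genotypes, so this fit cannot tell genotype and hepatocyte marker level apart. Red cell precursors are another known site of Tfrc transcripts. The sum of red cell and erythroblast markers was 2802 and 3398 CPM in the knockout and 3212 to 3937 CPM in the heterozygous libraries, which overlap. The part of either cell type in the Tfrc values was not tested.

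The metal transporters of phagosome and endosome were unequal in level and in test. Slc11a2 (ENSMUSG00000023030.16, chromosome 15) had 81.2 and 77.9 CPM in the knockout libraries and 36.6, 47.4 and 57.3 CPM in the heterozygous ones, which were spread widely. The log2 fold change was 0.76 ± 0.19 (edgeR adjusted p = 0.0418), a 1.69-fold higher level. The gene passed without heterozygous replicate 3 (0.92) and did not pass without knockout replicate 2 (0.72), knockout replicate 3 (0.80), heterozygous replicate 1 (0.60) or heterozygous replicate 2 (0.77). Slc11a1 (ENSMUSG00000026177.11, chromosome 1), known from the resistance of macrophages to intracellular microbes, had 1598 and 1455 CPM in the knockout libraries, against 1144, 1109 and 1308 CPM in the heterozygous ones. Its log2 fold change of 0.36 ± 0.10 missed the threshold (edgeR adjusted p = 0.0606) and passed without heterozygous replicate 3 (0.44). Neutrophils also carry Slc11a1 transcripts, and the neutrophil marker sum was higher in the knockout libraries. Its part in the Slc11a1 values was not tested.

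Fold changes over all genes moved with transcript length and base composition. The 4104 genes with the shortest transcripts had a median log2 fold change of 0.21, and the 4097 with the longest one of -0.31. The 4098 genes poorest in GC had a median of -0.44, and the 4097 richest one of 0.27. Ftl1, Hmox1, Blvra and Blvrb are among the shortest and Tfrc is among the longest. Ftl1, Slc48a1 and Slc11a1 are among the richest in GC, and Slc40a1, Tfrc and Blvra among the poorest. With offsets for length and GC content taken from the longest transcript of each gene, Slc48a1 (log2 fold change 0.63) and Fth1 (0.33) still passed and Slc40a1 newly passed (0.73 ± 0.09), where 3.57% of all genes rose and 6.81% fell. Hmox1 (0.33), Ftl1 (0.03), Tfrc (-0.72) and Slc11a2 (0.74) did not, nor did Slc11a1 (0.11), Blvrb (0.13) and Blvra (0.33). With the principal transcript instead, which for Fth1 has 1494 bases in place of 2062, Slc48a1 (0.67) and Slc40a1 (0.70) passed beside 3.24% of all genes higher and 6.44% lower. Hmox1 (0.35), Tfrc (-0.62), Slc11a2 (0.63) and Slc11a1 (0.14) did not pass. Fth1 (0.11) no longer did, and Ftl1 (-0.03), Blvra (-0.02) and Blvrb (-0.05) turned just below 0. These offsets take out any difference that follows length or GC content, whatever its source. Among the 10, Slc48a1 was the gene that passed with no offset and with either offset.

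**Figure D2:**
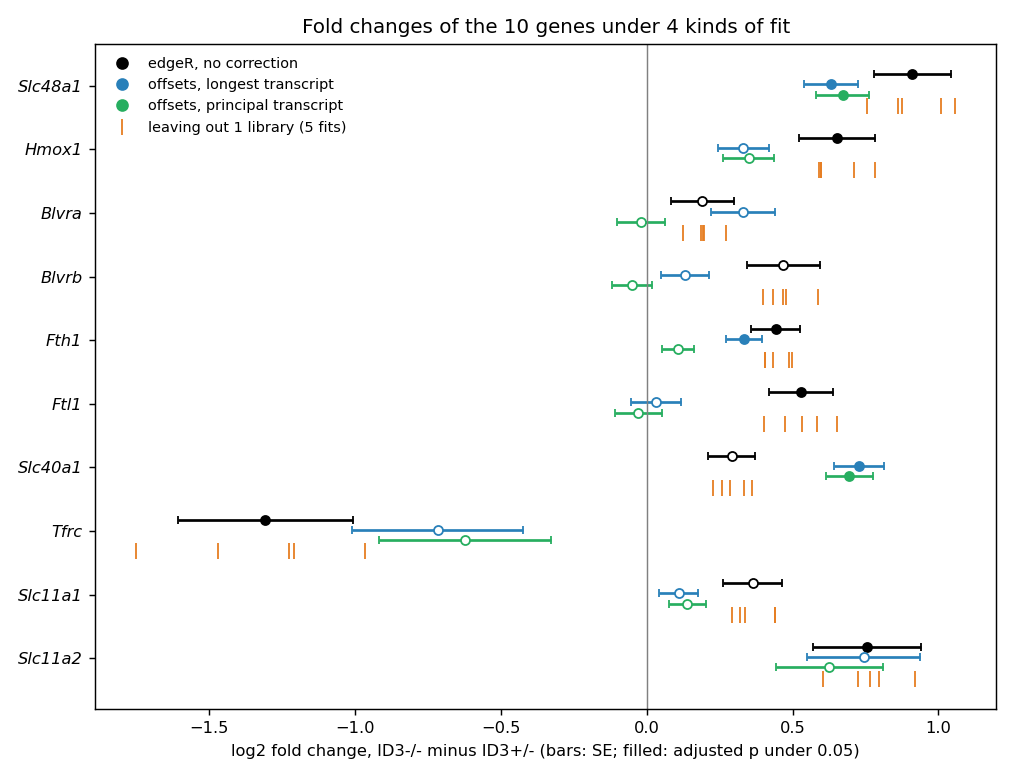
Log2 fold change (ID3-/- minus ID3+/-) of the 10 genes on the horizontal axis, with SE bars: edgeR with no correction (black), with offsets for length and GC content from the longest (blue) or the principal transcript (green), and leaving out each of the 5 libraries in turn (orange ticks). A filled point has an adjusted p under 0.05. Slc48a1 keeps a filled point in all 3 colours, Ftl1 moves to 0.03 and -0.03 with the offsets, and the leave-out ticks stay on 1 side of 0 for every gene.

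Compared per length, as transcripts-per-million (TPM, from the exon length of each gene), the order of the 10 genes was nearly the same in both genotypes. Fth1 came first, with 6947 ± 172 TPM in knockout cells (SD, n = 2) and 5129 ± 152 TPM in heterozygous cells (SD, n = 3), which placed it at rank 14 and 15 among all genes of the knockout libraries and at ranks 24 to 26 in the heterozygous ones. Ftl1 followed, with 5547 ± 591 TPM in knockout cells and 3863 ± 208 TPM in heterozygous cells. Slc40a1 had 4676 ± 223 TPM in knockout cells and 3844 ± 255 TPM in heterozygous cells, so it lay below Ftl1 in both knockout libraries and could not be separated from it beyond the spread in the heterozygous ones. Hmox1 was next, at 3733 ± 149 TPM in knockout and 2380 ± 254 TPM in heterozygous cells, and Slc11a1 after it, at 1411 ± 79.4 and 1100 ± 54.7 TPM. Slc48a1 and Blvrb exchanged places. In knockout cells Slc48a1 stood at 863 ± 113 and Blvrb at 766 ± 16.9 TPM, a difference within their spread, while in heterozygous cells Slc48a1 stood at 460 ± 33.1 and Blvrb at 555 ± 54.8 TPM. Blvra was at 348 ± 5.37 TPM in knockout and 306 ± 20.4 TPM in heterozygous cells. Slc11a2 (29.8 ± 0.548 and 17.6 ± 3.27 TPM) and Tfrc (4.06 ± 1.59 and 10.1 ± 1.92 TPM) closed the order far below the rest.

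**Figure D3:**
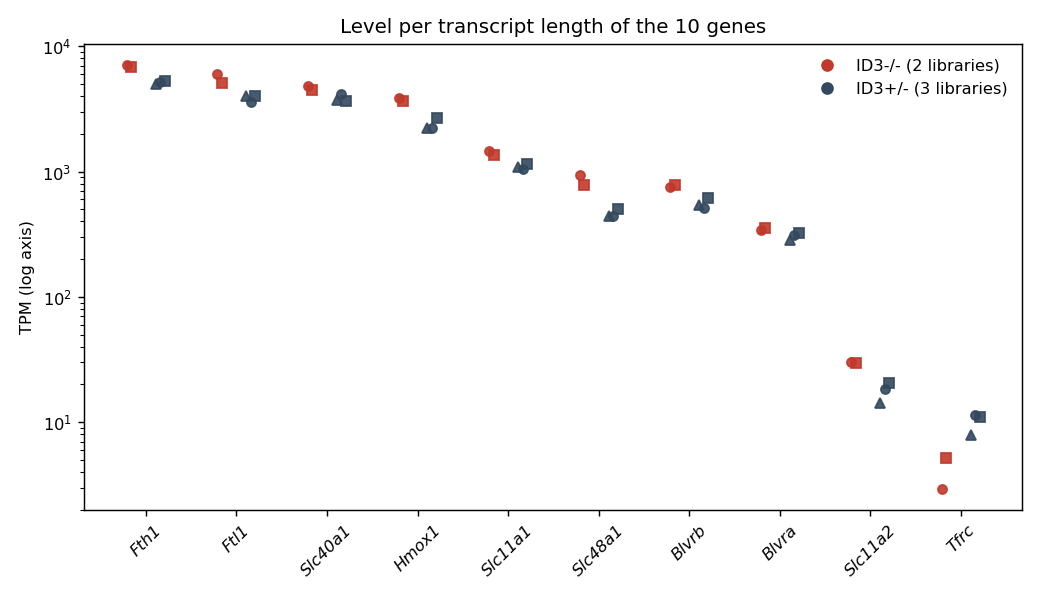
Level per length in TPM (log axis) of the 10 genes in each library, ordered by the mean of the ID3-/- libraries. Red marks are the 2 ID3-/- libraries, dark blue marks the 3 ID3+/- libraries, and the marker shape gives the replicate (triangle 1, circle 2, square 3). Fth1 leads in both genotypes, and Slc11a2 and Tfrc lie below 35 TPM in all libraries.

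Within each genotype, many of the 10 genes placed the libraries in the same order. Such orders were not counted over all genes. Heterozygous replicate 3 was the highest of its group for 9 of the 10 genes, all except Slc40a1, and heterozygous replicate 1 the lowest for 7. Knockout replicate 2 lay above knockout replicate 3 for 7 of the 10, with Tfrc, Blvra and Blvrb as the exceptions. Knockout replicate 2 was also the library with the lowest hepatocyte and the highest neutrophil marker sum. With the hepatocyte covariate none of the 10 genes passed in edgeR, and 0 of 10 also had an unadjusted p under 0.05. Of the 16436 genes tested, 1 still passed, 0.00608%, which was Id3, and 2095 had an unadjusted p under 0.05. The signs of all 10 stayed the same, at 0.48 ± 0.22 for Slc48a1, 0.45 ± 0.28 for Hmox1, 0.33 ± 0.16 for Fth1, 0.17 ± 0.17 for Ftl1 and 0.64 ± 0.43 for Slc11a2. That covariate separates the genotypes itself, so the 2 cannot be told apart in this fit.

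Other genes that carry the iron-responsive hairpin were read from the same fit, in which 6.41% of all genes rose and 10.0% fell. Of the 23 tested with a match in the 5' untranslated region that are not among the 10, 0 passed in edgeR. At an unadjusted p under 0.05 there were 5, all lower in the knockout, beside 5499 of all 16436 genes in either direction. In limma-voom 1 of the 23 passed and in DESeq2 4, again lower. The 23 include Alas2, the erythroid enzyme of haem synthesis, at 280 ± 91.8 CPM in knockout and 309 ± 35.4 CPM in heterozygous cells (log2 fold change -0.14 ± 0.21, edgeR adjusted p = 0.699). Of the 100 tested with a match in the 3' untranslated region besides Tfrc, 10 rose and 11 fell in edgeR, against 13 and 10 in limma-voom and 17 and 20 in DESeq2.

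Beyond the 10, 96 genes of iron and haem biology were read from the same fit in 8 groups. Of the 92 tested, 7 rose, 25 fell and 60 did not pass, with a median log2 fold change of -0.17. The share that rose was near that of all genes tested (6.41%), while the share that fell was above the 10.0% of all genes. Many of the genes that fell are best known from hepatocytes, and the hepatocyte marker sums given above were lower in the same libraries. The part of hepatocyte transcripts in these values was not tested. Without heterozygous replicate 1 the counts were 0 higher and 5 lower (9 and 29 at an unadjusted p under 0.05). Without heterozygous replicate 2 they were 0 and 3 (8 and 28 unadjusted). Over all genes these 2 fits gave 119 higher and 344 lower, and 87 higher and 248 lower. Of the 26 that passed and are named by the rule on p, Cd163, Trf and Ncoa4 kept the call whichever library was dropped, and 0 changed sign. Dropping knockout replicate 2 took the call from 16 of the 26, knockout replicate 3 from 5, heterozygous replicate 1 from 21, replicate 2 of that genotype from 23, and its replicate 3 from 5. With offsets for length and GC content from the longest transcript, 18 of the 26 kept the call. Mfsd7b, Cpox, Cp, Herc2, Iscu, Ireb2, Hif1a and Osgin1 did not.

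Uptake receptors and plasma carriers of haem fell or did not pass, with 0 of 8 higher in edgeR (0 at an unadjusted p under 0.05, 0 in DESeq2 and 0 in limma-voom) and 3 lower. Cd163, which takes up haemoglobin bound to haptoglobin, was at 228 ± 15.2 CPM in knockout and 472 ± 40.9 CPM in heterozygous cells (log2 fold change -1.05 ± 0.11, edgeR adjusted p = 0.00705). Haptoglobin itself (Hp, -1.94 ± 0.31) and the haem carrier haemopexin (Hpx, -1.37 ± 0.31), secreted by hepatocytes, also fell. Lrp1, the receptor for haemopexin, was at 1954 ± 135 CPM in knockout and 2029 ± 29.0 CPM in heterozygous cells and did not pass (-0.05 ± 0.08), nor did the complement receptor Vsig4 (-0.25 ± 0.07). Among the genes of haem export and partners of haem oxygenase, 1 of 5 fell, Mfsd7b, the table's symbol for the haem exporter gene Flvcr1, at 8.09 ± 0.341 CPM in knockout and 19.6 ± 6.71 CPM in heterozygous cells (-1.28 ± 0.31, edgeR adjusted p = 0.0402).

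Haem synthesis gave 0 of 12 higher in edgeR (1 at an unadjusted p under 0.05, 1 in DESeq2 and 0 in limma-voom) and 3 lower. Those were Alas1, which sets the pace of haem synthesis outside the erythroid line (-0.58 ± 0.14), Alad (-0.47 ± 0.12) and Cpox (-0.71 ± 0.18), both enzymes of later steps. Tmem14c, a mitochondrial porphyrin importer, did not pass (0.23 ± 0.10). Without any 1 library Alas1 lost its call, at -0.69 to -0.46.

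Other iron transport genes gave 3 higher and 6 lower of 16 tested. Transferrin, the plasma iron carrier (Trf), fell to 796 ± 99.5 CPM in knockout cells, against 1612 ± 65.7 CPM in heterozygous cells (-1.02 ± 0.11, edgeR adjusted p = 0.00705). Tfr2, the transferrin sensor of hepatocytes (-1.85 ± 0.33), the zinc and iron importer Slc39a14 (-1.19 ± 0.23) and the ferroxidase ceruloplasmin (Cp, -1.97 ± 0.42) fell too. The 3 that rose were the siderophore carrier Lcn2 (1.42), the lysosomal channel Mcoln1 (0.40) and the mitochondrial iron importer Slc25a28 (0.61), named after their values were seen. Its relative Slc25a37 (-0.57 ± 0.19) and the ferrireductase Steap3 (-0.30 ± 0.16) did not pass. Lcn2 is also a neutrophil product, and the neutrophil marker sum was higher in the same libraries. The part of neutrophils in the Lcn2 values was not tested.

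Genes that sense iron or load and unload ferritin gave 1 higher and 3 lower of 10. Ncoa4, the receptor that delivers ferritin to the lysosome, fell to 1.97 ± 0.277 CPM in knockout cells, against 10.5 ± 1.73 CPM in heterozygous cells (-2.42 ± 0.25, edgeR adjusted p = 0.00705), the lowest log2 fold change of this group. Herc2, a ubiquitin ligase that targets Ncoa4 (-0.65 ± 0.15), and Ireb2, which encodes the iron regulatory protein IRP2 (-1.65 ± 0.42), fell, and the iron-sulphur scaffold Iscu rose (0.40 ± 0.10). With offsets for length and GC content from the longest transcript Ncoa4 still passed (-2.08). Herc2 (-0.53), Ireb2 (-0.93) and Iscu (0.05) did not. Aco1, which encodes IRP1, averaged 257 CPM in knockout and 279 CPM in heterozygous cells and did not pass (-0.11 ± 0.10), nor did the ferritin iron chaperone Pcbp1 (0.18 ± 0.10). Ireb2 was near the lower end of detection, at 0.744 ± 0.282 CPM in knockout and 2.33 ± 0.52 CPM in heterozygous cells.

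The hepcidin axis gave 1 higher and 4 lower of 14. The inhibitory Smad6 rose (0.68 ± 0.11) and the inhibitory Smad7 fell (-0.75 ± 0.15). The protease Tmprss6 (-1.61 ± 0.28) and haemojuvelin (Hfe2, -2.27 ± 0.45), which hepatocytes use to tune hepcidin, fell. Hfe, the haemochromatosis gene that Kupffer cells also transcribe, was at 770 ± 91.0 CPM in knockout and 676 ± 16.2 CPM in heterozygous cells and did not pass (0.19 ± 0.10), nor did the signal transducer Smad1 (0.03 ± 0.10).

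Regulators of the route gave 1 higher and 2 lower of 13. Tfe3, a factor of lysosomal genes, rose (0.48 ± 0.09), and the oxygen-sensitive subunits Epas1 (-1.20 ± 0.19) and Hif1a (-1.75 ± 0.36) fell. Spic, the factor that haem induces in iron-recycling macrophages, was at 101 ± 1.53 CPM in knockout and 103 ± 12.5 CPM in heterozygous cells (-0.03 ± 0.12, edgeR adjusted p = 0.914). Nr1h3, the gene of LXR alpha, did not pass (edgeR adjusted p = 0.999). NRF2 is the stress factor known to drive Hmox1, the ferritins and Slc40a1, and its part in the values of the 10 genes was not tested. The NRF2 targets outside iron handling gave 1 higher and 3 lower of 14 in edgeR (3 and 4 at an unadjusted p under 0.05). Their median log2 fold change was 0.08. Osgin1 rose (0.56 ± 0.12), and glutathione reductase Gsr (-0.67 ± 0.10), malic enzyme Me1 (-1.48 ± 0.23) and the glutathione synthesis subunit Gclc (-0.93 ± 0.17) fell. The peroxidase Prdx1 (0.12 ± 0.09) and transaldolase Taldo1 (0.22 ± 0.12) did not pass.

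**Figure D4:**
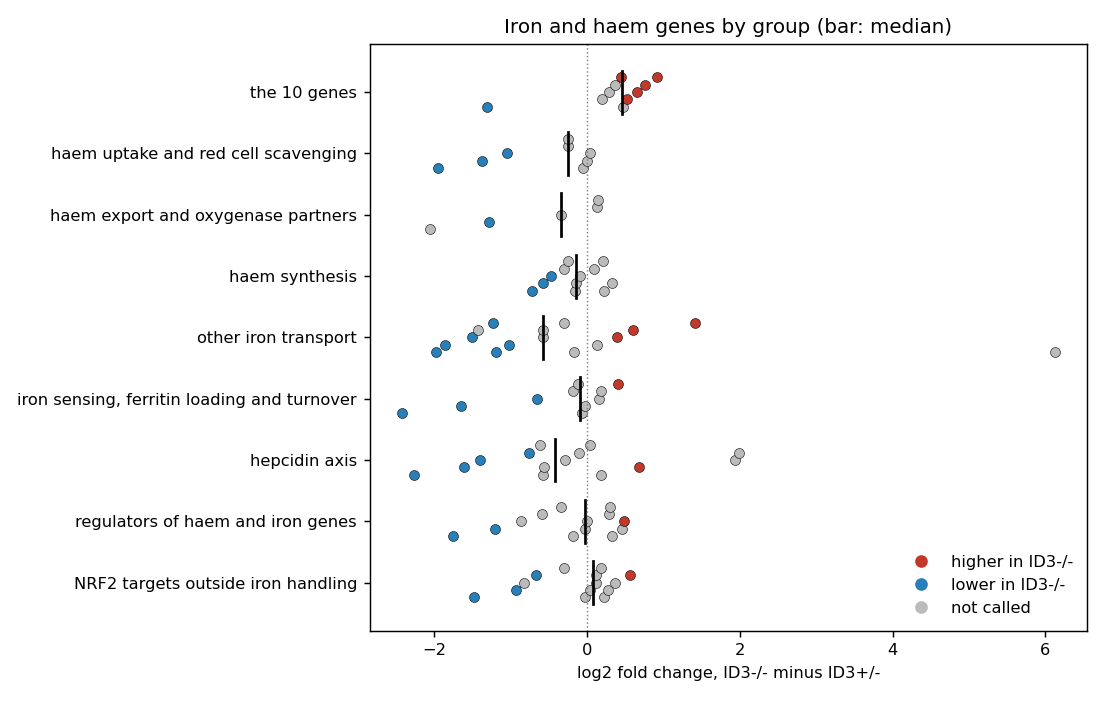
Log2 fold change (ID3-/- minus ID3+/-) on the horizontal axis for the 10 genes (top row) and the tested genes of 8 other groups of iron and haem biology, 1 point a gene, with the median of each row as a black bar. Red points rose and blue points fell in ID3-/- cells at an adjusted p under 0.05, and grey points did not pass. The median of the 10 genes is 0.46, and the medians of the other rows lie between -0.58 and 0.08.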

How the data were processed

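The authors deposited a table of unnormalised read counts, with a column for each library. HTSeq 0.5.4, DESeq 1.18.0, R 3.1.2 and build mm9 are named in the submitters' processing notes, and no aligner, annotation or strandedness is stated there or in the labels. Of 46983 gene IDs, 46488 were found in GENCODE M21 (GRCm38), 37902 with the same version, so the build behind the counts is uncertain. M21 gave lengths, GC content and untranslated regions. Per the labels, cDNA came from SMART-seq V4 amplification.

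Entries naming no gene (40.0% and 42.8% of all counted in the knockout, 47.0% to 48.6% in the heterozygous libraries) were left out. The test was edgeR's quasi-likelihood test (version 4.0.16, R 4.3.3) after filterByExpr and TMM, with no covariate, and p-values were adjusted over 16436 genes, with 3 residual degrees of freedom. The SE is the log2 fold change divided by the square root of F. The fit was tested on simulated data. Alternatives used limma 3.58.1 (limma-voom), DESeq2 1.42.0, other scalings and filters, a replicate block, covariates, offsets and leaving out libraries.

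The members and lists were chosen with earlier results of these data known. Named were the 10 members, and in each pathway list up to 4 genes that passed, taken by p, plus 2 that did not, taken by mean CPM. In each marker list the 2 most abundant were named, in the text only for lists a result touches.

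On M21, Slc48a1 exons share 29 bases with Hdac7, Slc11a2 exons 94 bases with Gm5475 and Ftl1 exons 355 bases with Gm10252, each on the opposite strand, and Ftl1 holds the miRNA model Gm22133.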

Additional observations from a re-analysis of the deposited data

How the results depend on the processing

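Of the 10 genes, 5 rose and 1 fell in the edgeR test reported above. The number that rose was 8 with DESeq2, limma-voom, upper-quartile scaling, library-size scaling or a filter of 1 CPM in 2 samples, where Slc40a1, Slc11a1 and Blvrb joined. It was 3 with length and GC offsets, 2 with offsets from the principal transcript (chosen after seeing the data), and 0 with the hepatocyte covariate, the replicate block or a minimum absolute log2 fold change of 1. The number that fell was 0 under each of these last 5 settings. At an unadjusted p under 0.05 the edgeR counts were 3 higher and 1 lower with the block, and 0 and 0 with the hepatocyte covariate and with the minimum fold. They were 6 and 0 with offsets, and 4 and 0 with offsets from the principal transcript. Of all 16436 genes, 5499 had an unadjusted p under 0.05 in the main fit, in either direction. That number was 3497 with the block, 2095 with the hepatocyte covariate and 1159 with the minimum fold. It was 4625 with offsets and 4573 with offsets from the principal transcript. The log2 fold change of Ftl1 reversed, to -0.0294, with length and GC offsets from the principal transcript. Leaving out 1 library gave 0 to 7 higher and 0 to 1 lower.

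Among the other pathway genes, 7 rose and 25 fell. DESeq2 gave 13 higher, offsets 2 and 16, principal-transcript offsets 3 and 15, the minimum fold 0 and 1 (2 and 13 unadjusted), the hepatocyte covariate 0 and 0 (2 and 11 unadjusted), and the block 0 and 0 (7 and 28 unadjusted). Leaving out 1 library gave 0 to 7 higher and 3 to 22 lower. Over all genes, 2698 passed, against 4557 with DESeq2, 1705 with offsets, 1592 with principal-transcript offsets, 99 with the minimum fold, 1 with the hepatocyte covariate, 1 with the block, and 335 to 2540 without 1 library. The cause was not tested. Replicate numbers 2 and 3 occur in both genotypes. The labels do not say that they pair samples, and deviations of same-numbered libraries correlated at -0.03 and -0.06. The deviations of the 2 knockout libraries mirror each other, so these 2 values are not independent checks of pairing. The block leaves little residual freedom. Upper-quartile scaling split all calls into 1443 higher and 1499 lower, TMM scaling into 1054 and 1644. The median log2 fold change over all genes lay between -0.07 and 0.05 in all settings run.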
